A study of Oryza sativa with 26 samples.

Results

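The third lamina joint of rice was compared between the widening of the leaf angle and the senescence of the joint. The lamina joint is the hinge of tissue between leaf blade and leaf sheath, and the third joint belongs to the third of the leaves counted back from the last. The samples were chosen by their titles: 2 arrays of the third joint at stage 6 were set against 2 arrays at stage 5, which makes 4 of the 26 arrays of the series. All plants were Oryza sativa, japonica cultivar Zhonghua 11, grown in a greenhouse, with no other genotype or treatment given. At stage 5 the joint was taken 60 days after sowing and is described as white, on a leaf whose angle was still growing. At stage 6 it was taken at 70 days and is described as senescent, white, dry and misshapen. Stage and age cannot be told apart. The same step in the second joint (65 and 75 days) and in the last joint (70 and 80 days), with 4 arrays each, served for comparison. The third joint at stages 2 and 4 (50 and 55 days) and the blade of the third leaf at stage 4 (55 days) gave reference levels, again with 2 arrays per group. The tissue was cut by hand, and the labels do not say whether the 2 biological replicates of a group came from separate plants, so a p-value here covers no more than the spread of the samples at hand, which may be technical.

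A leaf tilts outward when cells on the upper side of the joint elongate more than those on the lower side. Elongation needs loosening of the primary cell wall, cellulose and matrix polysaccharides newly added to it, and microtubules that guide their placement, and brassinosteroids and auxin act on the process. Senescence of leaf tissue is known for chlorophyll breakdown, for the recycling of nitrogen and for the action of NAC and WRKY transcription factors, ethylene, jasmonate and abscisic acid.

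Values are log2 expression per probe set, so a difference of 1 is a 2-fold change; 2 arrays per group limit how precisely each value is known. LG1, a factor required for the ligule and the joint to form, was at 8.08 and 8.54 at stage 5 and at 7.67 and 9.76 at stage 6, against 6.03 and 5.84 in the leaf blade. All 4 joint arrays thus stood above the leaf. The replicates of the third joint correlated at 0.993 at stage 5 and at 0.980 at stage 6, and 0.948% and 5.71% of probe sets differed by at least 2-fold between them. The control transcripts, which compare probes at the 3′ and 5′ ends of the same RNA, differed between the stages. The 3′ minus 5′ difference of Gapdh was 1.86 and 2.02 at stage 5 and 3.0 and 3.34 at stage 6, and that of Actin was 2.97 and 3.07 against 4.18 and 4.32. Of 7 such pairs, 6 were higher in both stage 6 arrays, and the Ef1a pair was lower. In the second joint Gapdh was at 1.92 and 1.81 and then at 3.14 and 3.41, a like step, while in the last joint it was at 2.93 and 3.33 and then at 3.11 and 3.25. This measure of RNA quality thus moved with the step in the third joint, and its part in the differences was not tested beyond the covariate fits.

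With all arrays, most transcripts called in the third joint fell. A call required a 2-fold difference and an adjusted p (Benjamini-Hochberg, limma) below 0.05 over all 57258 probe sets. By this rule 589 probe sets were called (1.03%), of which 164 were higher (0.286%) and 425 lower (0.742%) at stage 6. The median difference was 1.69 among the higher and -1.78 among the lower ones. The 2 stage 6 arrays lay above both stage 5 arrays for 22.2% of all probe sets and below both for 20.01%, and every called probe set had such separate groups. In these bulk samples fewer cells of a type and less RNA per cell cannot be told apart. With the Gapdh difference as a covariate 53 were called, 11 higher and 42 lower. The count was 228 without stage 5 replicate 1, 78 without stage 5 replicate 2, 818 without stage 6 replicate 1 (380 higher and 438 lower) and 132 without stage 6 replicate 2. Called in all of these 4 smaller fits and with all arrays were 63, of which 11 were higher and 52 lower.

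**Figure D1:**
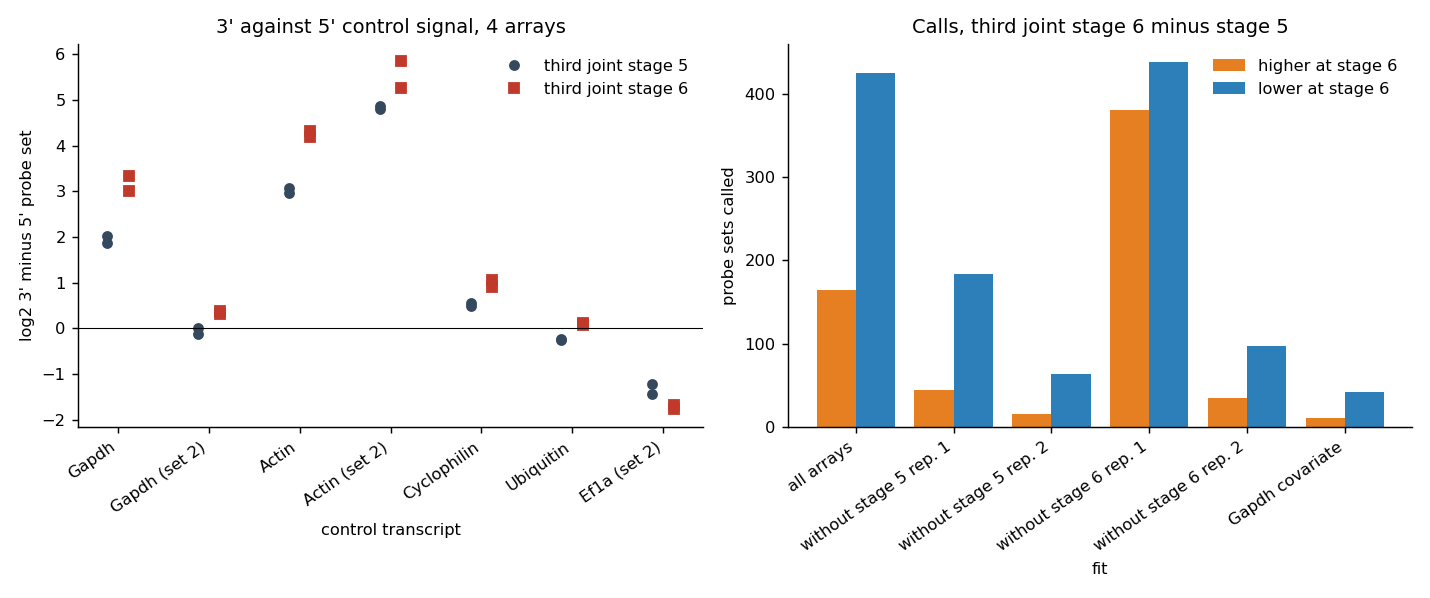
Left: log2 difference between the 3′ and 5′ probe sets of 7 control pairs in the third joint, 1 point per array, at stages 5 and 6. Right: number of probe sets called higher or lower at stage 6 with all arrays, without each of the 4 arrays and with the Gapdh covariate; lower calls outnumber higher ones in each fit shown, with 425 against 164 for all arrays.

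The largest fall belonged to a transcript without a gene name here. Probe set Os.23224.1.S1_s_at stood at 12.08 and 12.50 in the stage 5 arrays and at 3.08 and 3.42 in the stage 6 arrays. It fell by 9.04 on the log2 scale (SE 0.610, adjusted p = 3.27e-06, limma), and the related probe set Os.23224.1.S1_at fell by 8.26 (SE 0.622, adjusted p = 8.89e-06). In the third joint it was at 4.16 and 5.33 at stage 2 and at 13.05 and 13.41 at stage 4, and the leaf blade had 4.22 and 6.32. Among the samples of this leaf the transcript was thus high at stages 4 and 5 and low in the others. It also fell in the second joint, from 13.54 and 13.89 to 5.02 and 5.79, and in the last joint, from 8.76 and 9.95 to 3.35 and 4.03. The step of the third joint was not shown to differ from that of the second (adjusted p = 0.768) or the last (adjusted p = 0.168). Over all alternatives run the difference lay between -9.57 and -8.83, and its adjusted p was at most 0.00557. The transcript was picked out after its values were seen.

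Genes were counted by 1 probe set each. Of 17905 genes 99 were called higher (0.553%) and 259 lower (1.45%), and the median difference over all of them was 0.02. Among genes with a descriptive name, 12 rose and 50 fell.

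Expansins, which loosen the wall of growing cells, held 7 of the 50 named falls. Of 29 expansins 7 were called lower and 0 higher, against 1.45% and 0.553% of all genes. Their median difference was -0.31. The genes with a descriptive name numbered 2457, these 29 among them. EXPA1 was at 9.83 and 9.31 at stage 5 and at 5.43 and 6.42 at stage 6. The groups lay far apart, and stage 6 came close to the leaf blade, at 5.39 and 5.45. EXPA1 fell by 3.64 (SE 0.496, 12.5-fold, adjusted p = 0.00139, limma), the largest fall among the genes with a descriptive name. It had been at 13.17 and 13.02 at stage 2 and at 11.15 and 11.18 at stage 4, so each later stage lay below the one before it.

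EXPA2 and EXPB6 stood higher at stage 5 than at stage 4. EXPA2 was at 10.86 and 11.99 at stage 5 and at 8.69 and 8.63 at stage 6, and fell by 2.76 (SE 0.463, adjusted p = 0.00626). Its stage 4 arrays, of which the higher was at 10.61, lay below those of stage 5. The beta-expansin EXPB6 was at 6.68 and 8.5 at stage 2, at 8.29 and 9.33 at stage 4, at 10.84 and 11.63 at stage 5 and at 8.83 and 8.73 at stage 6, and fell by 2.45 in the last step (SE 0.542, adjusted p = 0.0352). The other called expansins were EXPA7 (-2.44), EXPB3 (-2.42), EXPA6 (-1.74) and EXPB7 (-1.37). Other probe sets of EXPA7 were at 0.17 and 0.01 and were not called. EXPB11, at 8.5 and 10.94 against 6.76 and 6.94, was not called (adjusted p = 0.0675), nor were EXPB2 (-1.80, adjusted p = 0.104) and EXPB4 (-1.13, adjusted p = 0.0798).

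The number of called expansins was 4 without stage 5 replicate 1 or without stage 6 replicate 1, 2 without stage 6 replicate 2, and 1 without stage 5 replicate 2. EXPA1 was called in each of these fits. With the Gapdh covariate 0 of the 29 were called, and the adjusted p of EXPA1 was 0.0675.

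**Figure D2:**
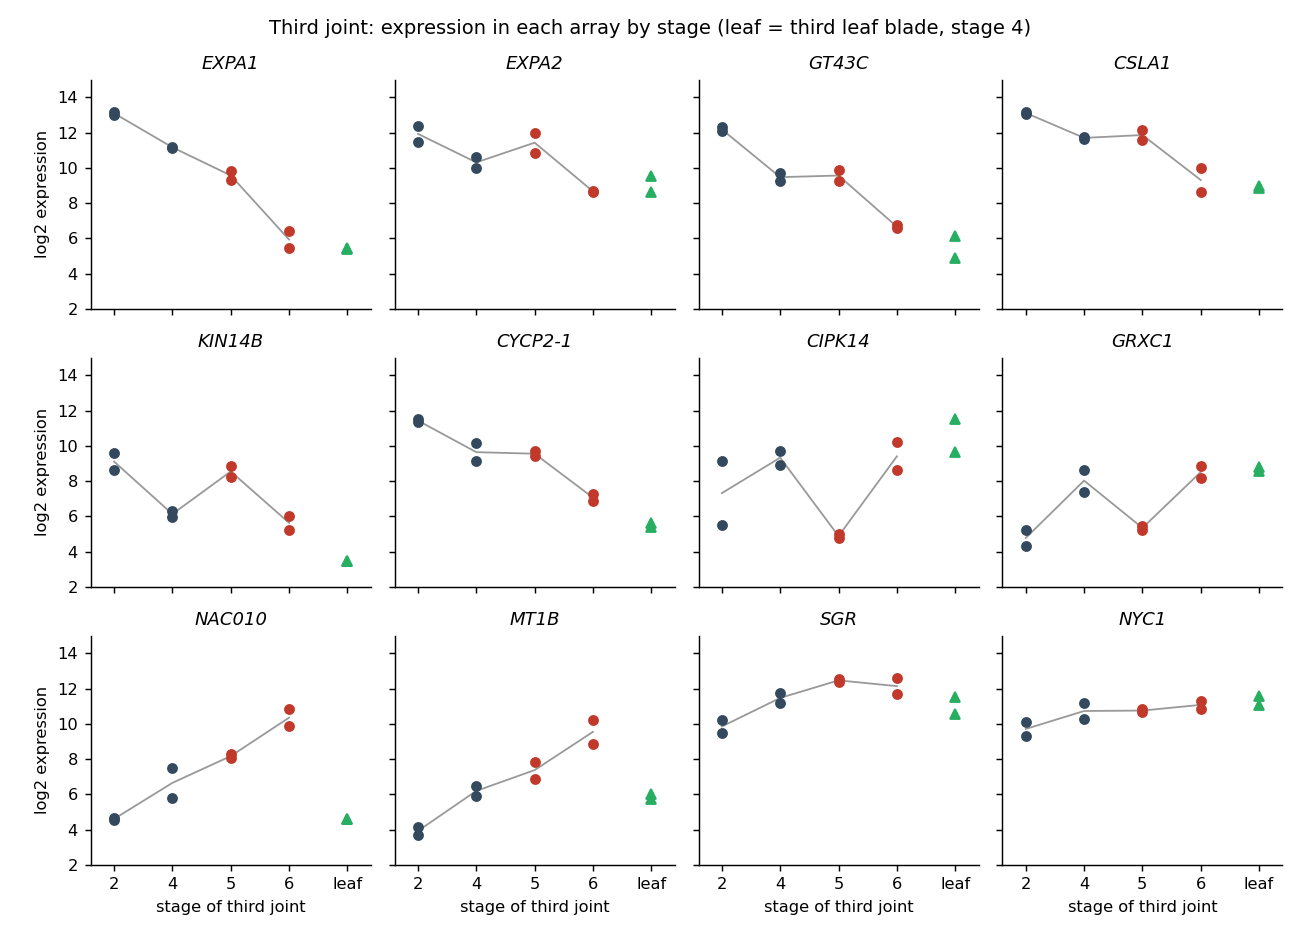
Log2 expression of 12 genes in every array of the third joint at stages 2, 4, 5 and 6 and in the 2 leaf blade arrays. Wall, kinesin and cyclin genes such as EXPA1 and KIN14B lie lower at stage 6 than at stage 5, CIPK14, GRXC1, NAC010 and MT1B lie higher, and SGR and NYC1 of chlorophyll breakdown overlap between the stages.

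A few genes that act on the wall matrix were among the named falls, outside any list or as single members of one. GT43C, a glycosyltransferase of the family that makes xylan, was at 9.24 and 9.89 at stage 5 and at 6.58 and 6.75 at stage 6, and fell by 2.90 (SE 0.377, adjusted p = 0.000893). CSLA1, of the cellulose synthase-like family that makes mannans, went from 11.59 and 12.13 to 9.98 and 8.64, and fell by 2.55 (SE 0.305, adjusted p = 0.000487). Both calls were kept without any 1 of the 4 arrays. CSLA1 was also called with the Gapdh covariate (adjusted p = 0.0463). It was the only called member of 20 cellulose synthase-like genes, whose median was -0.04 with 9 positive differences. That count stands beside 1.45% called lower over all genes. MAN1, a mannan hydrolase, went from 10.83 and 11.30 to 7.71 and 9.05, and fell by 2.68 (SE 0.554, adjusted p = 0.0233). Its stage 6 arrays differed by more than 2-fold, and the call was lost without stage 5 replicate 1, stage 5 replicate 2 or stage 6 replicate 1 (adjusted p = 0.103, 0.254 and 0.143).

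The 6 cellulose synthase genes of the primary wall all had negative differences, with a median of -1.08, and 1 was called. CESA5 was at 11.88 and 12.07 at stage 5 and at 10.96 and 10.69 at stage 6, and fell by 1.15 (SE 0.260, adjusted p = 0.0403). CESA8 (-1.43), CESA3 (-1.26) and CESA6 (-1.02) were not called, nor were CESA1 (-0.85) and CESA2 (-0.43). The 7 genes of the secondary wall list, used by xylem and fibres, had a median of -0.11 and 0 calls. Few or 0 calls fall in lists this small when 1.45% of all genes were called lower and 0.553% higher. CESA4 in that list was at 8.95 and 9.15 and then at 9.05 and 8.83, with overlapping groups. Among 14 xyloglucan and wall glucanase genes the endoglucanases Cel9E (-2.33) and GLU2 (-1.17) fell, and among 27 lignin and phenylpropanoid genes CAD6 (-1.40) fell. The calls of CESA5, Cel9E and CAD6 were lost without any 1 of the 4 arrays, with adjusted p up to 0.336, 0.210 and 0.426. GLU2 was called only without stage 6 replicate 1, and its adjusted p otherwise reached 0.398.

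Kinesins are the motors that move along microtubules. Of 70 cyclins, cyclin-dependent kinases and kinesins 7 were called lower and 0 higher, where 1.45% of all genes were called lower, and their median was -0.12 with 29 positive differences. Kinesins made up 34 of the 70, with 6 called lower and 14 positive differences. These were the kinesins KIN14B (-2.92), KIN13B (-2.32), KIN7K (-1.58), KIN5A (-1.31), KIN14C (-1.22) and KIN7D (-1.07) and the P-type cyclin CYCP2-1 (-2.49). Of the 33 DNA replication and histone genes 0 were called, with a median of 0.11. KIN14B was at 8.25 and 8.84 at stage 5 and at 6.02 and 5.24 at stage 6 (SE 0.536, adjusted p = 0.0114). Its stage 4 arrays, at 5.97 and 6.28, were near those of stage 6, and stage 2 was high again, at 9.60 and 8.61. KIN13B went from 10.13 and 10.05 to 7.95 and 7.59 (SE 0.390, adjusted p = 0.00626). Called members of this list numbered 3 without stage 5 replicate 1, 5 without stage 6 replicate 1, and 0 without stage 5 replicate 2, without stage 6 replicate 2 or with the Gapdh covariate.

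TUB5, a beta-tubulin, was at 12.57 and 12.87 at stage 5 and at 11.13 and 11.15 at stage 6, and fell by 1.58 (SE 0.233, adjusted p = 0.00278). TUB1 fell by 1.78 (adjusted p = 0.0382), while its other probe set was at -0.05 and not called. The 15 tubulin and actin genes had a median of -0.43 with these 2 calls, where 1.45% of all genes were called lower. In no list, and named because they were called, were PDIL1-5, SCAMP3 and COPZ2. PDIL1-5, a protein disulfide isomerase-like protein, went from 9.76 and 10.09 to 8.30 and 8.18, and fell by 1.69 (SE 0.206, adjusted p = 0.000605), with the call kept in every fit without 1 array. SCAMP3, a membrane protein of secretory vesicles, went from 11.98 and 12.18 to 10.88 and 10.89, and fell by 1.19 (SE 0.182, adjusted p = 0.00343). COPZ2, a coatomer subunit, fell by 1.19 on 1 probe set and was at -0.01 on another. Without stage 5 replicate 2 the calls of TUB5 and SCAMP3 were lost (adjusted p = 0.0773 and 0.0817). TUB1 lost its call without stage 5 replicate 2, stage 6 replicate 1 or stage 6 replicate 2 (adjusted p = 0.429, 0.172 and 0.0931).

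Other large falls came from single genes. Pi21, a proline-rich protein known for blast susceptibility, was at 11.29 and 11.11 at stage 5 and at 8.63 and 8.38 at stage 6, and fell by 2.69 (SE 0.491, adjusted p = 0.0108). Its second probe set fell by 2.30. C3H43, a CCCH zinc finger protein, went from 7.09 and 7.44 to 5.09 and 4.14, and fell by 2.65 (SE 0.334, adjusted p = 0.000674), and C3H23 of the same family fell by 2.23. RAC2, a small GTPase of the ROP type, fell by 2.46, from 5.58 and 5.82 to 3.33 and 3.16, while its other probe set was at -0.07. PLA2-III, a phospholipase A2, fell by 2.04 (SE 0.270, adjusted p = 0.00105), from 6.02 and 5.76 to 3.84 and 3.86. AP25, an aspartic protease, fell by 2.18. C3H43, C3H23 and PLA2-III were called in every fit without 1 array. Pi21, RAC2 and AP25 were called only without stage 6 replicate 1, and their adjusted p otherwise reached 0.124, 0.179 and 0.423.

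Of 43 Aux/IAA and ARF genes, repressors and factors of the auxin response, IAA30 (-2.09), IAA12 (-1.55) and the IAA1 at LOC4334069 (-1.33) fell and 0 rose, against 1.45% lower and 0.553% higher over all genes. IAA30 was at 12.03 and 12.27 at stage 5 and at 10.58 and 9.54 at stage 6 (SE 0.328, adjusted p = 0.00431). DAO, which oxidises auxin, was at 10.26 and 9.57 and then at 11.55 and 10.99, and rose by 1.35 (SE 0.308, adjusted p = 0.0417). GH3.8, which conjugates auxin to amino acids, was at 10.04 and 9.34 and then at 9.56 and 10.16, with overlapping groups. PHP5, a pseudo-phosphotransfer protein and the only call among 32 cytokinin genes, went from 7.21 and 7.59 to 5.73 and 4.96, and fell by 2.05 (SE 0.256, adjusted p = 0.000667), with the call kept in every fit without 1 array. IAA30 and IAA1 lost their calls without stage 5 replicate 2 (adjusted p = 0.0822 and 0.116) and without stage 6 replicate 2 (adjusted p = 0.0865 and 0.123). IAA12 and DAO lost theirs without any 1 of the 4 arrays, with adjusted p up to 0.272 and 0.444.

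Of the genes known for leaf or tiller angle, LA fell. LA is LAZY1, which acts in shoot gravitropism. It was at 12.03 and 12.11 at stage 5 and at 10.53 and 10.96 at stage 6, and fell by 1.32 (SE 0.254, adjusted p = 0.0151). Both stages lay well above the leaf blade, at 5.88 and 6.49. Without any 1 of the 4 arrays the call was lost, with adjusted p from 0.0514 to 0.171. The 16 brassinosteroid genes had 0 calls and a median of -0.19. Over all genes 1.45% were called lower and 0.553% higher, shares that leave few or 0 calls among 16. BRI1, the brassinosteroid receptor, was at 11.05 and 11.29 and then at 11.00 and 11.03. BU1, a helix-loop-helix protein that promotes leaf bending, was at 5.79 and 6.66 and then at 5.77 and 6.11. IBH1, a helix-loop-helix protein that opposes brassinosteroid responses, was at 7.60 and 7.32 and then at 7.09 and 7.14, and its difference of -0.34 was not called.

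Among the rises, CIPK14 led. It is a kinase of the family that CBL calcium sensors activate. CIPK14 was at 4.78 and 4.98 at stage 5 and at 8.61 and 10.20 at stage 6, and rose by 4.52 (SE 0.863, 23.0-fold, adjusted p = 0.0143). At stage 4 it had been at 8.93 and 9.73 and at stage 2 at 5.50 and 9.13, so stage 5 was a low point. At 60 days, the day of stage 5, CIPK14 was at 5.15 and 5.78 in the second joint and at 6.74 and 7.36 in the last. At 70 days, the day of stage 6, it was at 9.47 and 9.65 in the last joint, then at stage 5. GRXC1, a glutaredoxin, was also high at stage 4, at 7.40 and 8.65, then at 5.46 and 5.22 at stage 5 and at 8.87 and 8.16 at stage 6. Its rise was 3.17 (SE 0.378, adjusted p = 0.000487). At 60 days GRXC1 was at 4.75 and 5.13 in the second joint and at 4.46 and 4.18 in the last. At 70 days it was at 9.22 and 9.61 in the last joint. The part of the day of harvest in these rises was not tested. PIP2;7, a plasma membrane aquaporin, was at 10.03 and 9.48 at stage 4, at 7.65 in both stage 5 arrays and at 10.29 and 9.10 at stage 6, a rise of 2.04 (SE 0.470, adjusted p = 0.0435). All 3 genes thus had their stage 5 arrays below those of stages 4 and 6. At stage 2 GRXC1, at 4.34 and 5.20, and PIP2;7, at 4.68 and 4.87, lay below their stage 5 arrays. Of the 2 stage 4 arrays, replicate 2 had the highest Gapdh difference of the series (3.78).

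NAC010 and MT1B were lowest at stage 2 and highest at stage 6. NAC010, a NAC transcription factor, was at 4.68 and 4.52 at stage 2, at 8.06 and 8.28 at stage 5 and at 9.88 and 10.82 at stage 6, and rose by 2.18 in the last step (SE 0.504, adjusted p = 0.0438). MT1B, a metallothionein, was at 3.72 and 4.12 at stage 2, at 7.85 and 6.90 at stage 5 and at 10.24 and 8.86 at stage 6, and rose by 2.17 (SE 0.428, adjusted p = 0.0181). They were the only called members among 8 NAC factors and 7 metallothioneins. Over all genes 0.553% were called higher, a share that leaves few or 0 calls in lists this small. The other named rises were the bZIP factor bZIP83 (1.98), KPHMT1 of pantothenate synthesis (1.69), the small heat-shock protein HSP18.1 (1.65), RIBA3 of riboflavin synthesis (1.56), GDH2 (1.53) and NOS1 (1.11). A second HSP18.1 probe set rose by 1.70, and that of RIBA3 was at 0.16 and not called.

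Of the 12 named rises GRXC1 was called in every fit without 1 array, and its adjusted p with the Gapdh covariate was 0.0530. CIPK14 and NAC010 were called only without stage 6 replicate 1, and their adjusted p otherwise reached 0.212 and 0.413. MT1B lost its call without stage 5 replicate 2 or stage 6 replicate 1 (adjusted p = 0.286 and 0.123), and PIP2;7 without any 1 of the 4 arrays (adjusted p up to 0.277).

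The 4 genes of chlorophyll breakdown were not called. Over all genes 1.45% were called lower and 0.553% higher, shares that leave few or 0 calls among 4. SGR, which removes magnesium from chlorophyll, was at 12.38 and 12.55 at stage 5 and at 12.58 and 11.71 at stage 6. The groups overlapped, and both lay above stage 2, at 10.20 and 9.50. NYC1, a chlorophyll b reductase, was at 10.66 and 10.85 and then at 11.32 and 10.83. NOL, its partner, was at 8.05 and 7.97 and then at 8.57 and 8.75, a difference of 0.65 (adjusted p = 0.163), while its other probe set was at -0.26. RCCR1, which reduces chlorophyll catabolites, was at 9.11 and 9.09 and then at 9.38 in both. Of 45 genes listed by name for senescence, hormones and leaf angle, 34 were matched, of which EXPA1, LA and GLN1-1 fell and 0 rose. These counts stand beside 1.45% lower and 0.553% higher over all genes.

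Nitrogen genes went both ways. GLN1-1, a cytosolic glutamine synthetase, was at 12.71 and 12.59 at stage 5 and at 11.51 and 11.52 at stage 6, and fell by 1.13 (SE 0.262, adjusted p = 0.0439). GDH2, a glutamate dehydrogenase, was at 10.97 and 10.74 and then at 12.31 and 12.46, and rose by 1.53 (SE 0.355, adjusted p = 0.0458). Both calls were lost without any 1 of the 4 arrays (adjusted p up to 0.267 for GLN1-1 and 0.345 for GDH2). A second GDH2 probe set rose by 1.44, and another, at 0.94, was not called. ALN, an allantoinase of purine breakdown, fell by 1.0 (SE 0.206, adjusted p = 0.0225), and was called only without stage 6 replicate 1 (adjusted p otherwise up to 0.232). GLT2, a glutamate synthase, was at 3.40 and 3.29 and then at 6.52 and 7.32, a difference of 3.57 that missed the threshold (adjusted p = 0.0620). The 21 nitrogen genes had a median of 0.09.

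No gene was called in 6 lists tied to stress and senescence, where 0.553% of all genes were called higher and 1.45% lower, shares that leave 0 or few calls in lists of this size. They were 19 dehydrin and dehydration genes (median -0.08), 24 abscisic acid genes (-0.16), 11 ethylene genes (-0.09), 35 jasmonate genes (-0.15), 6 WRKY factors (-0.38) and 21 chitinase and defence genes (-0.23). RAB21, a dehydrin, was at 8.95 and 7.31 at stage 5 and at 9.06 and 6.61 at stage 6, below stage 4, at 11.81 and 12.16. Its replicates differed more than its stages. ACO1, an enzyme of ethylene synthesis, was at 12.40 and 12.44 and then at 10.17 and 12.34, and was called lower only without stage 6 replicate 2 (adjusted p = 0.0371). SWEET15, a sugar exporter, was at 7.80 and 7.10 and then at 5.95 and 3.97, a difference of -2.49 that was not called (adjusted p = 0.221). The 44 autophagy and proteolysis genes held 1 call, AP25, and the 44 heat-shock genes 1 call, HSP18.1.

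**Figure D3:**
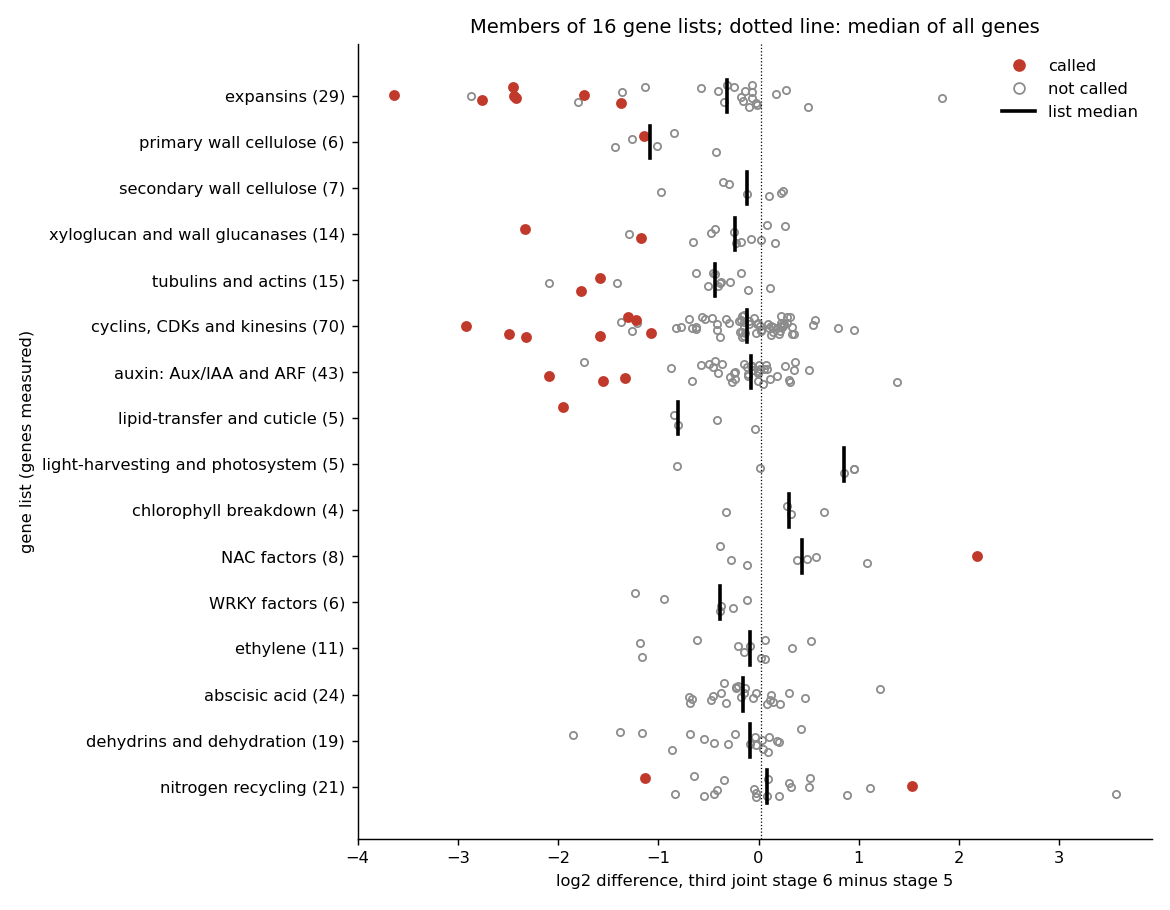
Log2 difference, stage 6 minus stage 5, of each member of 16 gene lists in the third joint, with called members filled and list medians as bars. The called expansins, kinesins, tubulins and Aux/IAA genes lie below 0, and the chlorophyll breakdown, WRKY, ethylene, abscisic acid and dehydration lists have no called member.

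Hand-cut tissue may carry cells of neighbouring organs, and the marker lists gave these levels. Few or 0 calls fall in lists of their size when 1.45% of all genes were called lower and 0.553% higher. The 5 light-harvesting and photosystem genes of green leaf averaged 10.25 and 9.04 at stage 5 and 10.35 and 9.74 at stage 6, against 12.28 and 12.20 in the leaf blade, with 0 calls. The 5 lipid-transfer genes of the epidermis averaged 9.77 and 9.98 and then 9.26 and 8.87, and LTP110-A among them fell by 1.95, from 5.65 and 6.56 to 4.17 and 4.15. The 9 KNOX genes of the meristem averaged 7.83 and 7.80 and then 7.47 and 7.72. The 31 MADS genes of the panicle averaged 5.92 and 5.93 and then 5.94 and 5.83, and the 7 secondary wall genes 8.5 and 8.63 and then 8.49 and 8.31, all 3 lists with 0 calls. The epidermal list thus moved down with the wall and kinesin genes, and its part in their falls was not tested. The LTP110-A call was lost without stage 5 replicate 2, stage 6 replicate 1 or stage 6 replicate 2 (adjusted p = 0.364, 0.0762 and 0.194).

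In the last joint the same step gave 80 calls (0.14%), and in the second 2250 (3.93%), 1615 higher (2.82%) and 635 lower (1.11%). The second joint count rests on stage 5 replicate 1, the array with the lowest upper quartile of the series (7.50); without it 542 were called (0.947%), 183 higher (0.32%) and 359 lower (0.627%). Of the 425 probe sets lower in the third joint 352 had a negative difference in the second and 338 in the last, where 52.3% and 49.2% of all probe sets did. Of the 164 higher ones 123 had a positive difference in the second and 83 in the last, where 47.7% and 50.8% of all probe sets did. Called lower in both the third and the second joint were 106, or 24.9% of the calls of the third and 16.7% of those of the second; without that array they were 85, or 20% and 23.7%. The third and the last joint shared 15 lower calls, or 3.53% of the former and 37.5% of the latter, where 0.0699% of all probe sets were called lower in the last joint. Called higher in both the third and the second joint were 61, or 37.2% and 3.78%, and without that array 27, or 16.5% and 14.8%; 11 were called the opposite way in the second joint, or 8 without that array. In the last joint 4 of the 164 were called higher (2.44%) and 3 lower, where 40 of all 57258 probe sets were called each way (0.0699%).

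**Figure D4:**
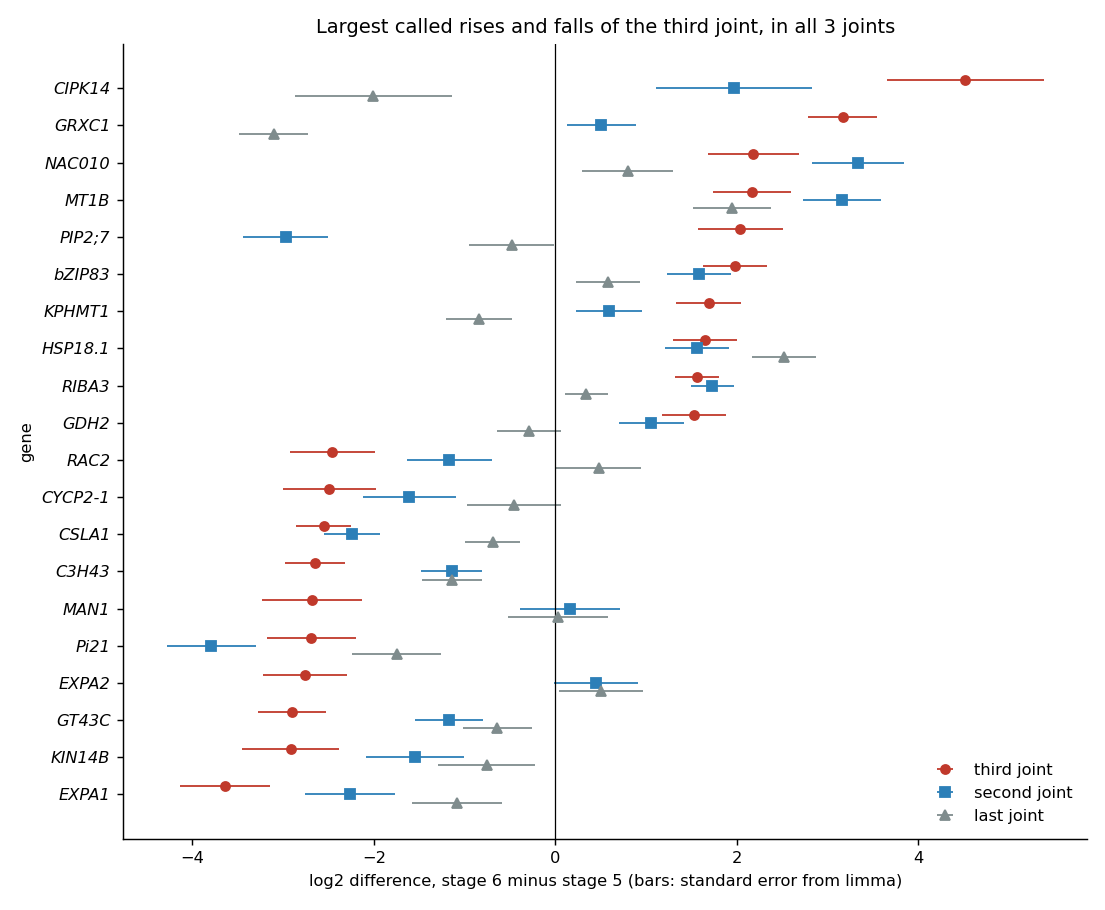
Log2 difference between stage 6 and stage 5, with its standard error, for the 10 largest named rises and the 10 largest named falls of the third joint, shown for the third, second and last joints. EXPA1, CSLA1 and Pi21 lie below 0 in each joint, EXPA2 lies below 0 in the third joint and above 0 in the others, and PIP2;7 lies above 0 in the third and below 0 in the second.

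Whether the step of the third joint differed from that of another joint was tested as a difference of differences in the same limma fit. The steps spanned 60 to 70 days in the third joint, 65 to 75 in the second and 70 to 80 in the last. Joint and day of harvest thus cannot be told apart in these differences. Against the second joint 344 probe sets differed (0.601%), 160 of them (46.5%) with the higher step in the third; after quantile normalization 489 did, 314 of them (64.2%) higher in the third. Without the second joint stage 5 replicate 1 the count was 96. EXPA2 fell in the third joint, while in the second it was at 8.92 and 8.38 and then at 9.02 and 9.18. The steps differed by -3.21 (SE 0.655, adjusted p = 0.0361), and without that array the adjusted p was 0.0797. EXPB11 went from 5.90 and 5.37 to 7.37 and 8.18 in the second joint, and its steps differed by -5.01 (SE 1.02, adjusted p = 0.0355, or 0.0890 without that array). EXPA1, at -3.64 in the third joint and -2.26 in the second, was not shown to differ (-1.38, SE 0.701, adjusted p = 0.399).

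Some genes of plastids and photosynthesis had a higher step in the third joint (60 to 70 days) than in the second (65 to 75 days). Of the 5 listed light-harvesting and photosystem genes 1 differed, RCABP69, and the list ranged from -1.63 to 3.48, where 1.27% of all genes differed. LIR1, a light-regulated chloroplast protein, was at 10.99 and 11.14 at stage 5 and at 12.68 and 12.85 at stage 6 in the third joint. In the second joint it went from 13.49 and 13.54 to 10.50 and 11.79. The steps differed by 4.07 (SE 0.578, adjusted p = 0.00548), although the difference within the third joint, 1.70, was not called (adjusted p = 0.0553). At 60 days LIR1 was at 10.09 and 10.71 in the second joint (stage 4) and at 9.73 and 10.54 in the last (stage 2). In the last joint it was at 13.69 and 13.61 at 65 days (stage 4) and at 12.40 and 12.89 at 70 days (stage 5). LIR1 thus had like levels in joints cut on the same day at 60, 65 and 70 days. At 55 days it did not, with 12.39 and 12.99 in the third joint (stage 4) and 9.78 and 10.38 in the second (stage 2). The part of the day was not tested. The aquaporin PIP2;7 rose in the third joint and went from 10.56 and 10.60 to 6.91 and 8.31 in the second. Its steps differed by 5.02 (SE 0.665, adjusted p = 0.00290). At 60 days PIP2;7 was at 5.88 and 7.32 in the second joint and at 4.37 and 4.90 in the last. In the last joint it was at 11.24 and 11.11 at 65 days and at 9.47 and 9.73 at 70 days. At 55 days it was at 5.12 and 4.30 in the second joint (stage 2), against 10.03 and 9.48 in the third (stage 4). PPT2, a phosphate translocator of plastids, differed by 1.97 (SE 0.272, adjusted p = 0.00416). These 3 genes were called in each of the 8 fits without 1 array.

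RBCS, the small subunit of Rubisco, was at 10.93 and 9.74 and then at 12.21 and 10.98 in the third joint. In the second it was at 11.87 and 11.27 and then at 8.39 and 9.54. At 65 days RBCS was at 13.19 and 12.69 in the last joint (stage 4), above the second joint of that day. The steps of the third and second joints differed by 3.87 (SE 0.607, adjusted p = 0.00993). Within the third joint the difference of RBCS was 1.26 and not called. Its other probe sets were at 0.68, 0.72 and 0.33 there, also not called. RCABP69, a chlorophyll a/b binding protein, differed by 2.77 (SE 0.582, adjusted p = 0.0409). Without the second joint stage 5 replicate 1 the adjusted p was 0.0501 for RBCS and 0.0966 for RCABP69. LIR1, PPT2, RBCS and RCABP69 were picked out after their values were seen.

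Of 44 heat-shock genes 3 had a lower step in the third joint than in the second, HSF1, HSP24.1 and HSP81-1, and 41 were not called, with values up to 1.49, where 1.27% of all genes differed. HSF1, a heat-shock factor, was at 10.40 and 9.86 at stage 5 and at 9.67 and 9.14 at stage 6 in the third joint, and went from 7.22 and 7.77 to 11.10 and 11.06 in the second (difference -4.31, SE 0.760, adjusted p = 0.0184). HSP24.1, a small heat-shock protein, was at 9.04 and 8.77 and then at 9.95 and 8.99 in the third joint, and went from 6.23 and 5.60 to 10.47 and 11.15 in the second (difference -4.33, SE 0.881, adjusted p = 0.0358). At stage 5 both genes lay higher in the third joint (60 days) than in the second (65 days). At 60 days the second joint, at stage 4, had HSF1 at 10.70 and 10.12 and HSP24.1 at 9.32 and 8.72. The last joint, at stage 2, then had HSF1 at 9.83 and 8.51 and HSP24.1 at 7.76 and 6.35. At 65 days the last joint, at stage 4, had HSF1 at 8.23 and 8.36 and HSP24.1 at 5.90 and 6.21. What part the day of harvest had was not tested. Without the second joint stage 5 replicate 1 the adjusted p was 0.0821 for HSF1, 0.0850 for HSP24.1 and 0.138 for HSP81-1, and none of the 3 was called.

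Against the last joint 70 probe sets differed (0.122%). The Gapdh measure rose with the step in the third joint and stayed level in the last, and with it as a covariate 5 probe sets differed. GRXC1 rose in the third joint and went from 9.22 and 9.61 to 6.23 and 6.40 in the last. Its steps differed by 6.27 (SE 0.535, adjusted p = 0.000114), and this was called in each of the 8 fits without 1 array and with the Gapdh covariate. CIPK14 went from 9.47 and 9.65 to 7.70 and 7.41 in the last joint, and its steps differed by 6.53 (SE 1.22, adjusted p = 0.0482), called in 1 of those 8 fits. PHP5 and TUB5 fell in the third joint and were at 0.09 and 0.30 as differences in the last. The steps differed by -2.14 for PHP5 (SE 0.362, adjusted p = 0.0303) and by -1.88 for TUB5 (SE 0.329, adjusted p = 0.0385), called in 1 and in 0 of the 8 fits. With the Gapdh covariate CIPK14, PHP5 and TUB5 were not called (adjusted p = 0.385, 0.262 and 0.211).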

How the data were processed

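Per the submitters' processing notes, the authors deposited log2 values computed by RMA from 1-colour Affymetrix rice arrays; neither the RMA version nor its settings or chip definition is known here. Per the labels' protocols, Trizol-extracted total RNA was labelled with biotin. These log2 values were tested without further normalization, leaving aside 123 control probe sets.

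The 26 arrays (13 groups of 2) were fitted together in limma 3.58.1 under R 4.3.3, without covariates or blocks, which left 13 residual degrees of freedom; tests were two-sided. Through the platform annotation and RefSeq assembly ASM3414082v1, 22436 probe sets matched 1 gene, 95 several and 34727 none. Each gene was represented by its brightest probe set on average.

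Named genes are the 10 largest called rises and falls with a descriptive name, the 2 largest called changes each way in a list, the 5 largest called differences each way between joints, and 45 listed genes; further called or uncalled genes were named after their values were seen. The members and lists were chosen with earlier results of these data known. A total of 143 list memberships caused by shared aliases were removed after the annotation was read and before list results were computed. In simulated data of 57258 probe sets for the step in the third joint, 79 of 100 changes of 1.5 and 98 of 100 changes of 3 on the log2 scale were recovered, with 9 false calls. The simulated noise was normal and independent between arrays, with no shift of RNA quality and no array that stands apart. These rates therefore check the fit and do not measure how reliable the real calls are. Alternatives were quantile normalization, a filter on dim probe sets, 1 probe set per gene, only the groups compared, treat, a trended robust prior, array weights, the Gapdh covariate, a replicate block, and fits without 1 or 2 arrays. Deviations of same-numbered arrays from their group means were compared between stages 5 and 6. They correlated at 0.28 in the third joint, -0.02 in the second and 0.05 in the last. The labels name no pairs, so the numbers were not taken as pairs, and the replicate block was run as an alternative.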

Additional observations from a re-analysis of the deposited data

Results flagged for a closer look

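The step from stage 5 to stage 6 differed between the third joint and another joint, by a limma test of the difference itself, for the genes below; values are log2 differences of the steps, the third joint minus the other joint. Groups of 2 arrays are too small for a test of single outlying arrays. The steps spanned 60 to 70 days in the third joint, 65 to 75 in the second and 70 to 80 in the last. Joint and day of harvest cannot be told apart in them.

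Against the second joint, genes with a higher step in the third were GLT2 (6.15), LOC107275738 (5.83), LOC4343443 (5.76), LOC4327297 (5.59), LOC4345663 (5.41), PIP2;7 (5.02), LIR1 (4.07), RBCS (3.87), RCABP69 (2.77), GRXC1 (2.66) and PPT2 (1.97). Those with a lower step were LOC4326757 (-5.80), EXPB11 (-5.01), LOC4342135 (-5.01), HSP24.1 (-4.33), HSF1 (-4.31), LOC4336402 (-3.40), EXPA2 (-3.21), LOC4340388 (-3.20), the magnesium transporter MRS2-A (-3.11), LOC4339759 (-2.89), LOC4347860 (-2.24), the heat-shock protein HSP81-1 (-1.79), PDIL1-5 (-1.32) and SCAMP3 (-1.31). Of these 25, 8 were called without the second joint stage 5 replicate 1 and 7 in each of the 8 fits without 1 array, among them PIP2;7, LIR1 and PPT2.

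Against the last joint, the step was higher in the third for CIPK14 (6.53), GRXC1 (6.27), LOC4334617 (5.56), LOC4327297 (5.01) and LOC4348268 (4.74). It was lower for LOC4339759 (-3.31), LOC4337739 (-3.27), LOC4336402 (-3.21), LOC4347860 (-2.44), LOC4340388 (-2.25), PHP5 (-2.14), TUB5 (-1.88) and ALN (-1.62). Of these 13, GRXC1 and LOC4347860 were called in each of the 8 fits without 1 array and with the Gapdh covariate, and the other 11 were not called with that covariate. Other probe sets of LOC4337739 and LOC4339759 stood at 0.32 and -0.72 in the third joint and were not called, against -2.24 and -1.76 for the probe sets used here.

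LOC4327297 was at 6.88 and 6.11 at stage 5 and at 9.32 and 8.54 at stage 6 in the third joint, against 10.20 and 10.02 and then 6.44 and 7.48 in the second and 10.10 and 9.68 and then 7.43 and 7.19 in the last. LOC4347860 was at 6.43 and 6.30 and then at 5.90 and 5.69 in the third joint, and rose in both others, from 4.38 and 4.21 to 5.81 and 6.13 in the second and from 4.88 and 4.85 to 6.85 and 6.62 in the last.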

How the results depend on the processing

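For stage 6 against stage 5 in the third joint (589 calls), the count was 53 with the Gapdh covariate, 6 with only the groups compared, 322 with treat and 941 without the 2 arrays that stand apart (second joint stage 5 replicate 1 and the stage 4 replicate 2 of the third joint). Without 1 array it lay between 78 and 818. With only the 4 arrays 6780 probe sets had an unadjusted p under 0.05, against 6347 with all.

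For the difference between the third and the second joint (344 calls), the count was 605 with the Gapdh covariate, 85 with array weights, 28 with only the groups compared, 143 with treat and 190 without the 2 arrays, and between 35 (without second joint stage 6 replicate 1) and 5037 (without second joint stage 5 replicate 2) without 1 array. For the difference between the third and the last joint (70 calls), it was 5 with the Gapdh covariate, 481 with array weights, 387 with only the groups compared, 24 with treat and 264 without the 2 arrays, and between 4 (without last joint stage 5 replicate 2) and 102 (without stage 6 replicate 1 of the third joint) without 1 array. Fits with fewer arrays rest on fewer samples, yet some of them gave more calls. The cause of these changes in count was not tested. All other settings stayed within 1.5 times these counts, and 1 probe set per gene moved the median of all genes to -0.11 in the difference from the second joint.

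With the replicate block the 3 counts were 661, 405 and 95; GDH2 and KIN14C were no longer called, and GLT2 and LIR1 were. Of 67 named calls in the third joint none changed sign in any alternative. Of these, 5 were kept with the Gapdh covariate, 0 with only the 4 arrays, 37 with treat and 11 in all 4 fits without 1 array. Having 2 arrays per group limits every value.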
